A study of Homo sapiens with 12 samples.

Results

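Gene expression was compared between 2 arrays labelled as cells given 1 µM Y15 and 2 arrays labelled as untreated cells, 4 of the 12 arrays of the series. The arrays were chosen by these labels alone, and every gene with a probe above background on at least 2 arrays was tested, 11564 of 20044 genes with a named probe. Every sample carries the label SKBR-3, which is a breast cancer line with an amplified ERBB2 gene and no oestrogen receptor. Drug exposure lasted 24 hours per the design text. The untreated arrays have no agent in their labels, and no vehicle is named. The other groups of 2 arrays each had lapatinib at 5 µM, Y15 at 1 µM with lapatinib at 5 µM, PF04554878 at 1 µM, and PF04554878 at 1 µM with lapatinib at 5 µM. Nothing in the labels shows whether the replicates were separate cultures. The p-values therefore cover the spread among these samples alone, and that spread may be technical.

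Y15 and PF04554878 are inhibitors of focal adhesion kinase (FAK), the product of PTK2. FAK is recruited to clustered integrins, where it phosphorylates itself, binds SRC and passes signals on to the ERK and AKT cascades and to the actin skeleton. In breast epithelium it acts downstream of integrins and of growth factor receptors such as EGFR and ERBB2, which lapatinib inhibits. FAK is controlled largely as a protein, so a kinase inhibitor need not alter the level of its messenger RNA.

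ERBB2 and the oestrogen receptor gene bear on the labelled line. ERBB2 had log2 intensities of 9.34 and 9.35 on the untreated arrays and of 9.27 and 9.36 on the Y15 arrays. It lay above background and below ESR1 on each of them. Of its 3 probes 1 was kept, and intensities of probes for different genes do not give their relative amounts. Whether ERBB2 is amplified in these cells was not tested. ESR1, the oestrogen receptor, had log2 intensities of 10.24 and 9.96 on the untreated arrays and of 9.89 and 10.02 on the Y15 arrays, against a background cutoff of 6.80. The 4 arrays thus carry ESR1 signal, which goes against the line named in the labels, and "untreated" and "Y15" below mean the arrays with those labels. Across the genes tested, the 4 arrays correlated with each other at r from 0.984 to 0.995, with the lapatinib and Y15 plus lapatinib arrays at 0.879 to 0.894, and with the PF04554878 arrays, with or without lapatinib, at 0.929 to 0.938. Untreated array 2 was as close to Y15 array 2 (r = 0.988) as to untreated array 1 (0.987). Untreated replicates also spread more, with an SD of the replicate differences over genes, per array, of 0.16 log2 units against 0.10 for Y15. Of markers of other cell types, 3 of 13 fibroblast, 2 of 10 endothelial, 1 of 14 leukocyte, 3 of 8 basal epithelial and 2 of 9 adipocyte genes passed the filter, and LEP, an adipocyte hormone gene, was the only one called, with a log2 difference of 0.46 ± 0.11 (SE, adjusted p = 0.0236). The LEP call ended without untreated array 1 (adjusted p = 0.104) and without Y15 array 1 (0.142) or 2 (0.128). Between 9648 and 9797 genes lay above background on each of the 4 arrays.

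The Y15 arrays had more transcript of the luminal epithelial genes TFF3, XBP1 and TFF1, of the immediate early genes IER3, DUSP5 and IER5, of the surface protein gene PODXL, and of H19 and TH at 11p15. They had less transcript of KITLG, the KIT ligand gene, of the metallothionein MT1F, and of SOWAHA, ANAPC13 and SSRP1. By limma, 629 genes passed an adjusted p of 0.05, which is 5.44% of those tested, 340 higher with Y15 (2.94%) and 289 lower (2.5%). In all 629 the 2 groups do not overlap, but neither do they in 5398 of the 11564 genes tested. Most differences were small. The median called gene changed 1.37-fold, 131 changed at least 1.5-fold and 9 at least 2-fold, 6 up and 3 down. In bulk RNA of this kind, fewer cells of a type and less RNA per cell cannot be told apart.

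The number of calls rested on how the spread was estimated. With the 4 arrays fitted alone it was 60, and with a separate spread for each group 229. It was 147 without Y15 array 1 and 136 without Y15 array 2, 497 without untreated array 1 and 1171 without untreated array 2. Genes called in every one of the 4 fits that leave an array out numbered 89, 52 higher and 37 lower, and 57 of these were also called with the 4 arrays alone. Of the 15 largest increases and the 15 largest decreases, 25 were called with the 4 arrays alone. They were picked for their size on these same arrays, which that fit uses again, so their kept calls are no independent result. Among the named genes the calls of 30 did not end under any alternative: TFF3, PODXL, IER3, H19, TH, HEY2, XBP1, GDF15, FAM217B, NDRG1, DUSP22, TFF1, PRSS8, VMA21, DUSP5, NR2E3, SAT1 and IER5 among the increases, and KITLG, SOWAHA, ANAPC13, SSRP1, ENTREP3, MORF4L1, MALRD1, SETD3, MT1F, CBFB, CNOT11 and ZDHHC16 among the decreases. Of these, H19, TH, GDF15, TFF1 and MALRD1 were measured under 12 of the 13 alternatives. The filter that asks for signal above background on all 12 arrays dropped them. Every other named call ended under at least 1.

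**Figure D1:**
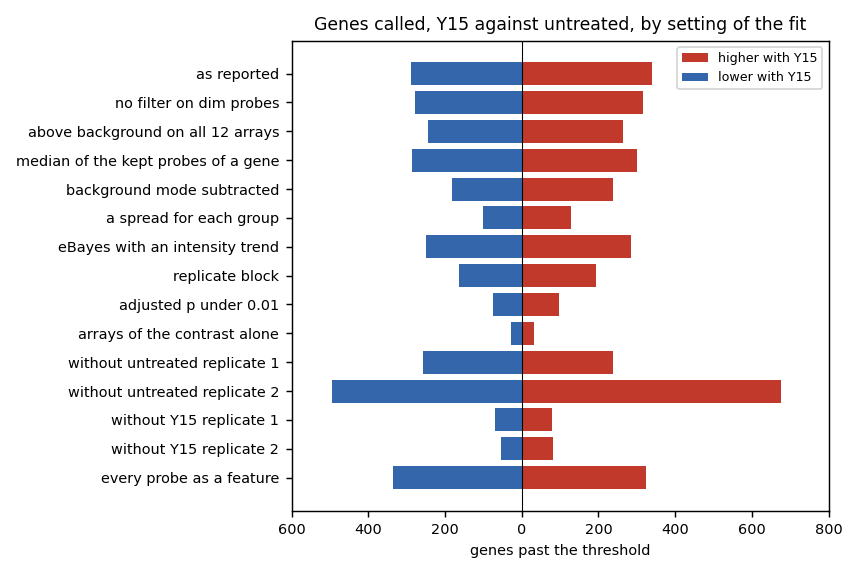
Number of genes past the threshold in Y15 against untreated (x axis, genes higher with Y15 to the right in red and lower to the left in blue) under each setting of the fit (y axis). The count runs from 60 with the arrays of the contrast alone to 1171 without untreated replicate 2, and each setting called genes in both directions.

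TFF3, a trefoil peptide that luminal epithelial cells secrete with mucus, showed the largest increase. Its log2 intensity was 8.31 and 8.23 on the untreated arrays and 10.21 and 10.06 on the Y15 arrays. These groups lie far apart, with a change of 1.86 ± 0.13 (SE), or 3.64-fold (adjusted p = 2.52e-06). Its relative TFF1, a trefoil peptide best known as an oestrogen-induced gene, went from 12.42 and 12.83 to 13.52 and 13.48. All 4 values are high, and the change was 0.87 ± 0.12 (adjusted p = 0.000724). XBP1, a transcription factor of secretory and luminal cells that also drives the unfolded protein response, read 12.18 and 12.48 untreated and 13.33 and 13.32 with Y15. Both of its kept probes rose, the one shown by 1.00 ± 0.10 (adjusted p = 0.00014) and the other by 0.82 ± 0.08.

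Over all genes tested 2.94% were called higher and 2.5% lower, and the list counts from here on are to be read beside those shares. Of 28 luminal epithelial genes above the filter, 4 rose and none fell. The members that rose were these 3 and TFAP2A, an AP-2 transcription factor, at 0.40 ± 0.10 (adjusted p = 0.0359). The TFAP2A call ended without untreated array 1 (adjusted p = 0.11), Y15 array 1 (0.155) or Y15 array 2 (0.186), and 4 further probes of the gene differed by only -0.19 to 0.14. The median change of the list was 0.13, against 0.01 over all genes, and 21 of its 28 members lay above 0. Without untreated array 2 the number that rose was 10, and without any other single array it was 3. ESR1 itself differed by -0.14 ± 0.11 (adjusted p = 0.491). Among 29 oestrogen receptor targets, 6 rose (TFF1, IGFBP4, RET, GREB1, CCND1 and SUSD3) and BCL2 fell, with a median of 0.13. The median was 0.25 against untreated array 1 alone and 0.01 against array 2 alone, where 14 of the 29 lay below 0. That number of increases was 4 without untreated array 1, 12 without untreated array 2, 2 without Y15 array 1 and 3 without Y15 array 2. IGFBP4, which binds insulin-like growth factors in the medium, read 9.40 and 9.53 untreated and 10.60 and 10.09 with Y15, and rose by 0.88 ± 0.14 (adjusted p = 0.00186). Its call did not hold with the 4 arrays alone (adjusted p = 0.063). BCL2, the survival factor, fell by 0.62 ± 0.12 (adjusted p = 0.011) on its brightest probe and by 0.87 ± 0.09 on another, while a further probe differed by -0.10 ± 0.12. Without Y15 array 1 the adjusted p of the brightest probe was 0.0737, and without Y15 array 2 it was 0.102.

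PODXL, a sialomucin of the cell surface, had log2 intensities of 7.51 and 7.84 untreated and of 9.04 and 9.16 with Y15. Its change of 1.42 ± 0.10 was the second largest, 2.68-fold (adjusted p = 4.22e-06). A dimmer probe of PODXL rose by 0.45 ± 0.09. PRSS8, a membrane-anchored serine protease of epithelia, rose by 0.87 ± 0.11 (adjusted p = 0.000415), from 7.88 and 7.85 to 8.59 and 8.88. CD24, a surface sialoglycoprotein, rose by 0.65 ± 0.11 and DSP, the desmosome protein desmoplakin, by 0.39 ± 0.11 (adjusted p = 0.0487). The CD24 call ended without Y15 array 1 (adjusted p = 0.0646). The DSP call did not hold with any 1 of the 4 arrays left out, and its direction turned when the median of its kept probes was taken. PODXL, CD24 and DSP were the called members of 19 genes for cadherins and mesenchymal transition, with 0 called lower and a median of 0.01. None of 8 keratin genes above the filter was called.

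**Figure D2:**
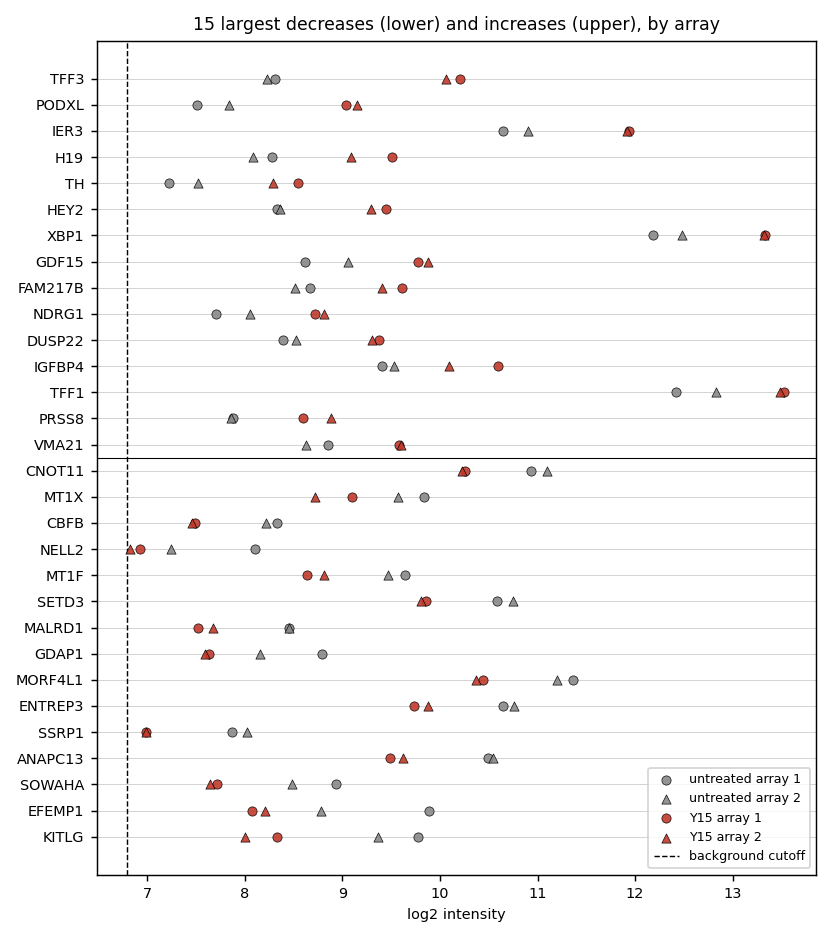
Log2 intensity (x axis) of the 15 genes with the largest increases (upper) and the 15 with the largest decreases (lower), with untreated arrays in grey, Y15 arrays in red, replicate 1 as circles and replicate 2 as triangles; the dashed line is the background cutoff of 6.80. No gene's groups overlap because genes were chosen for that, and EFEMP1, GDAP1 and NELL2 have their 2 untreated arrays far apart.

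Immediate early genes and feedback genes of the ERK pathway were the second group. Of 27 above the filter, 5 rose and 1 fell, with a median of 0.15 and 21 members above 0. Against untreated array 1 alone the median was 0.17 with 3 below 0, and against array 2 alone 0.10 with 11 below 0. IER3, an early-response gene that shields cells from apoptosis, read 10.64 and 10.90 untreated and 11.93 and 11.91 with Y15. The change was 1.15 ± 0.12, or 2.22-fold (adjusted p = 0.00014). DUSP5, a nuclear phosphatase that shuts off ERK, rose by 0.81 ± 0.11 (adjusted p = 0.000658), from 7.69 and 7.92 to 8.65 and 8.58. IER5 rose by 0.65 ± 0.10 (adjusted p = 0.00245), from 8.44 and 8.40 to 9.07 and 9.06. These 3 genes kept their calls under each alternative that was run, and 3 was also the number that rose without either Y15 array.

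EGR1, the zinc finger factor that growth factor signalling induces within minutes, read 7.53 and 7.50 untreated and 8.06 and 8.01 with Y15. It rose by 0.52 ± 0.10 (adjusted p = 0.00983), a call that ended without Y15 array 1 (adjusted p = 0.0925) or 2 (0.0677) and after background subtraction. CCND1, the G1 cyclin, rose by 0.39 and FOS, a partner of JUN in AP-1, fell by 0.35, both less than the median called change of 0.45. Neither call held without either Y15 array, and that of FOS also ended without untreated array 2. The EGR1 promoter is shown because its serum response elements, with the CArG box as core, are the feature it is best known for. The 250 bases before the start, from RefSeq on GRCh38.p14, are at chr5:138465229-138465478 on the plus strand and are given 5′ to 3′, with the CArG box matches in capitals.
EGR1: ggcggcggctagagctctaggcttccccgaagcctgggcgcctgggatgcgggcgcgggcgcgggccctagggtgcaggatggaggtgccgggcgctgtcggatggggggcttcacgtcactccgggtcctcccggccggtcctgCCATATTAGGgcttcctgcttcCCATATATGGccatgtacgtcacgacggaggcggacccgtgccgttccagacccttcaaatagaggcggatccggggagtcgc
The 2 matches start 105 and 83 bases before the start. Of 35116 promoters of the same length, 1.16% hold at least 1 CArG box on either strand and 0.0313% at least 2. The table holds 80 of the 106 named genes.

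Metallothioneins, small proteins that bind zinc and copper and whose genes the zinc sensor MTF1 switches on, were among the genes that fell. Of 18 genes for metallothioneins and zinc transport above the filter, 3 fell and 1 rose, the median was -0.18 and 3 lay above 0. MT1F had log2 intensities of 9.64 and 9.47 untreated and of 8.64 and 8.81 with Y15, a change of -0.83 ± 0.10 (adjusted p = 0.000448). MT1X went from 9.84 and 9.57 to 9.10 and 8.72, a change of -0.80 ± 0.15 (adjusted p = 0.00797). MT2A went from 10.47 and 10.46 to 10.04 and 9.83, a change of -0.53 ± 0.15 (adjusted p = 0.046). In each of the 3 genes both Y15 arrays lie below both untreated arrays, as in every gene called lower. Only the MT1F call held under all alternatives. The MT1X call ended without Y15 array 2 (adjusted p = 0.128), and the MT2A call without any 1 of the 4 arrays (adjusted p from 0.0609 to 0.281). Metallothionein genes are near-identical copies, and a probe may read more than its own gene. SLC39A4, a zinc importer of the plasma membrane, moved the other way, by 0.51 ± 0.11 (adjusted p = 0.0143), a call that ended without Y15 array 1 (adjusted p = 0.16).

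Metallothionein promoters are known for the metal response element, which MTF1 binds, and those of MT1X and MT2A are shown for it. Its core was searched as TGCACNC or TGCGCNC on both strands in the 250 bases before the start, from RefSeq on GRCh38.p14, 5′ to 3′, with matches in capitals. MT1X is at chr16:56682220-56682469 and MT2A at chr16:56608334-56608583, both on the plus strand.
MT1X: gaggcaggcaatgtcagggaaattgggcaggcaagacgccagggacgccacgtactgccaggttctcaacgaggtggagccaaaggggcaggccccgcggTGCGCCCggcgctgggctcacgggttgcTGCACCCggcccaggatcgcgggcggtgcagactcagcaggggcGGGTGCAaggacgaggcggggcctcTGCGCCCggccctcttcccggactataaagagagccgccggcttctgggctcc
MT2A: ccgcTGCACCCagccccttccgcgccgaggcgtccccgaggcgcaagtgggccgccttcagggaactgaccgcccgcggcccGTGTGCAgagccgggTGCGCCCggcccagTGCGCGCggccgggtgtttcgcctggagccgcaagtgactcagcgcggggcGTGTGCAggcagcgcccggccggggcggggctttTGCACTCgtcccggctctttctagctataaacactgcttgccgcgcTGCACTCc
MT1X holds 4 matches and MT2A holds 7. At least 1 match is found in 24.8% of the 35116 promoters and at least 4 in 0.37%. A match describes the letters only, and INSIG1, which rose, holds 4 as well.

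KITLG, which encodes stem cell factor, the ligand of the KIT receptor, showed the largest decrease. Its log2 intensity was 9.77 and 9.37 untreated and 8.33 and 8.0 with Y15, so the groups lie more than a unit apart. The change was -1.40 ± 0.17, with the untreated level 2.65-fold higher (adjusted p = 0.000264), and its 2 further probes fell by 1.07 ± 0.10 and 0.50 ± 0.10. Among 28 receptor tyrosine kinases and ligands, KITLG was the only one that fell. The 3 that rose were DDR1, a collagen receptor (0.57 ± 0.10, adjusted p = 0.00396), RET, the receptor of GDNF-family ligands (0.46 ± 0.10, adjusted p = 0.0125), and VEGFB, a ligand of VEGFR1 (0.55 ± 0.12, adjusted p = 0.0202). A further probe of RET rose by 0.57 ± 0.10, while each of the 3 genes also has a probe that differed little, DDR1 by -0.14, RET by -0.03 and VEGFB by -0.00. The RET call ended without Y15 array 1 (adjusted p = 0.12) or 2 (0.0598), and the VEGFB call without untreated array 1 (0.106), Y15 array 1 (0.0669) or Y15 array 2 (0.171). ERBB2 differed by -0.03 ± 0.09 (adjusted p = 0.897) and ERBB3 by 0.36 ± 0.14 (adjusted p = 0.154), and EGFR lay below background on all 4 arrays.

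Of the genes around FAK itself, 32 for FAK, integrins and direct partners passed the filter, 1 fell and none rose, and the median was 0.03. PTK2 read 11.07 and 11.17 untreated and 11.03 and 11.01 with Y15, a difference of -0.10 ± 0.10 (adjusted p = 0.605). PTK2B, the related kinase PYK2, lay near background and differed by -0.01 ± 0.09. ITGAV, the alpha-V integrin subunit, went from 8.96 and 9.16 to 8.61 and 8.50, a change of -0.50 ± 0.13 (adjusted p = 0.0398). That call ended without untreated array 2 (adjusted p = 0.104), Y15 array 1 (0.133) or Y15 array 2 (0.225). Actin, SRF and YAP target genes, which report tension on the skeleton, had 2 of 26 higher and 0 lower with a median of 0.04. CNN2, a calponin, rose by 0.60 ± 0.10 (adjusted p = 0.00253) and TPM2, a tropomyosin, by 0.43 ± 0.12 (adjusted p = 0.0455). The TPM2 call ended without untreated array 1 (adjusted p = 0.234) and without Y15 array 1 (0.0847) or 2 (0.3).

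**Figure D3:**
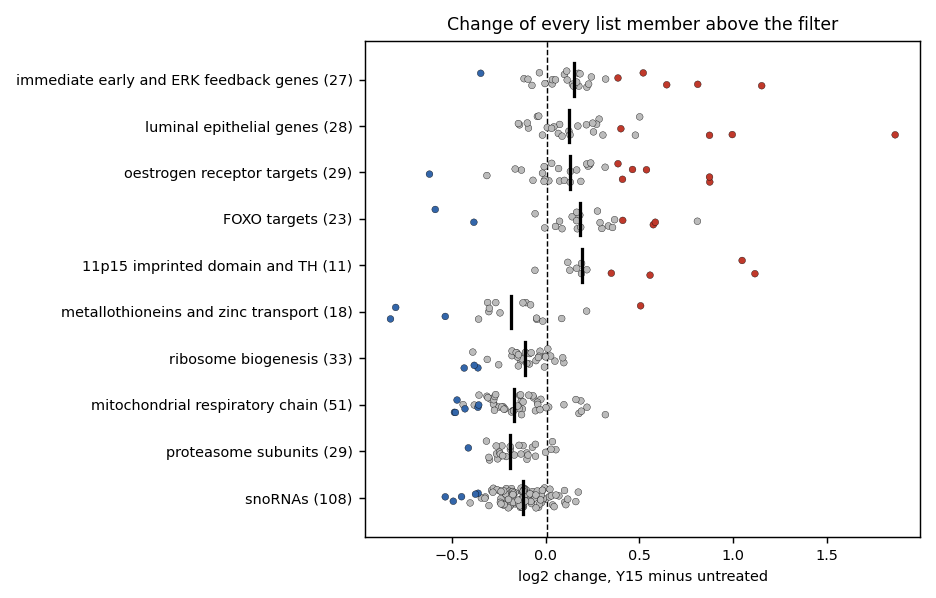
Log2 change of Y15 minus untreated (x axis) for every member above the filter of 9 gene lists and for snoRNAs (number in brackets), with called increases in red, called decreases in blue, other genes in grey and list medians as black bars; the dashed line is the median of all genes, 0.01. Most members of the respiratory chain, proteasome, ribosome biogenesis and snoRNA sets lie to the left of the dashed line without being called.

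Of 11 genes of the imprinted domain at 11p15 and its neighbour TH above the filter, 4 rose, none fell and 10 lay above 0, with a median of 0.19. This list, which names TH, was written with earlier results of these data known, so its share of calls is no independent result. H19, the maternally expressed long noncoding RNA, read 8.28 and 8.09 untreated and 9.51 and 9.09 with Y15, a change of 1.12 ± 0.12 (adjusted p = 0.000163). TH, tyrosine hydroxylase, the first enzyme of catecholamine synthesis, read 7.22 and 7.52 untreated and 8.54 and 8.29 with Y15, a change of 1.05 ± 0.12 (adjusted p = 0.000217). For both genes the groups are well separated, and a second TH probe rose by 1.12 ± 0.11. ASCL2, a bHLH transcription factor, rose by 0.56 ± 0.11 (adjusted p = 0.00687) and CD81, a tetraspanin, by 0.35 ± 0.09 (adjusted p = 0.0359). The H19 and TH calls held under each alternative that measured these genes, but the filter on all 12 arrays dropped both. The ASCL2 call ended without Y15 array 1. The CD81 call ended without untreated array 1 (adjusted p = 0.146), Y15 array 1 (0.142) or Y15 array 2 (0.192).

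HEY2, a transcriptional repressor that Notch induces, rose by 1.02 ± 0.11 (adjusted p = 0.000163), from 8.33 and 8.36 to 9.45 and 9.29. It was the only one called of 19 Notch pathway genes, whose median was 0.04. GDF15, a stress-induced cytokine of the TGF-beta family that p53 and ATF4 both induce, read 8.62 and 9.06 untreated and 9.78 and 9.88 with Y15, a change of 0.99 ± 0.13 (adjusted p = 0.000448). TNFRSF10B, a death receptor of TRAIL, rose by 0.66 ± 0.12 on 1 probe, while a dimmer probe differed by -0.01 ± 0.09. Its call ended without Y15 array 2 (adjusted p = 0.0711). GDF15 and TNFRSF10B were the 2 that rose of 23 p53 targets, with 0 lower. ATF4 targets moved both ways, with 4 of 37 higher, among them SLC3A2, a chain of amino acid transporters (0.67 ± 0.17), and 2 lower, ASNS, asparagine synthetase (-0.50 ± 0.11), and GARS1, glycyl-tRNA synthetase (-0.43 ± 0.10). The untreated arrays differed in SLC3A2 by more than the change, at 11.40 and 12.14, and its call ended without untreated array 1 and without either Y15 array. The ASNS call ended without Y15 array 1 and the GARS1 call without either Y15 array.

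Among the unfolded protein response genes, XBP1 and DNAJB9, a chaperone of the endoplasmic reticulum (0.58 ± 0.08, adjusted p = 0.00115), rose, while SPCS3, a signal peptidase subunit, and ATF6, a stress sensor, fell by 0.49 ± 0.08 and 0.47 ± 0.10. A dimmer SPCS3 probe differed by 0.10 ± 0.11, and without Y15 array 2 neither decrease was called. The other 29 of these 33 were not called, and of 26 heat shock chaperones none was. NDRG1, a stress and differentiation gene, rose by 0.88 ± 0.12 (adjusted p = 0.000825), from 7.70 and 8.06 to 8.72 and 8.81. It was 1 of 3 called higher among 32 hypoxia and glycolysis genes, with BNIP3, a mitophagy receptor (0.41 ± 0.10), and DDIT4, an inhibitor of mTORC1 (0.43 ± 0.11), while PGK1, a glycolytic enzyme, fell by 0.36 ± 0.09. FOXO targets had 3 of 23 higher and 2 lower and a median of 0.18. Those that rose were YPEL3, a growth suppressor (0.59 ± 0.10), FBXO32, a ubiquitin ligase subunit (0.57 ± 0.11), and BNIP3, and those that fell were RBL2, a pocket protein (-0.59 ± 0.11), and SOD2, the mitochondrial superoxide dismutase (-0.38 ± 0.10). None of these 5 calls held with the 4 arrays alone. FOXO targets that rose numbered 9 without untreated array 2 and 0 without Y15 array 1. The BNIP3, DDIT4 and PGK1 calls ended without untreated array 1 and without either Y15 array. SAT1, which acetylates polyamines and was listed with the NF-kB targets, rose by 0.75 ± 0.10 (adjusted p = 0.000825). NRF2 targets had 3 of 23 higher, FTL, the ferritin light chain (0.64 ± 0.10), NQO1, a quinone reductase (0.42 ± 0.09), and EPHX1, an epoxide hydrolase (0.38 ± 0.09), and 0 lower. Of these 3 calls, only that of FTL held when either Y15 array was left out.

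Among the other large decreases, SSRP1, a subunit of the histone chaperone FACT, had log2 intensities of 7.87 and 8.03 untreated and of 6.99 and 6.99 with Y15, a change of -0.96 ± 0.11 (adjusted p = 0.000217). With Y15 it stood just above the cutoff, so the fold is compressed. MORF4L1, a chromodomain subunit of the NuA4 acetyltransferase complex, went from 11.37 and 11.20 to 10.44 and 10.37, a change of -0.87 ± 0.11 (adjusted p = 0.00036). SETD3, the histidine methyltransferase of actin, fell by 0.83 ± 0.10 and CBFB, the partner of RUNX factors, by 0.80 ± 0.10. CNOT11, a subunit of the CCR4-NOT deadenylase, fell by 0.77 ± 0.10. ANAPC13, a small subunit of the anaphase-promoting complex, read 10.49 and 10.54 untreated and 9.49 and 9.62 with Y15, a change of -0.96 ± 0.11 (adjusted p = 0.000204). These 6 calls held under each alternative. The lists around them moved little: of 32 histone chaperones and chromatin remodellers, only SSRP1 and MORF4L1 fell and ASF1B rose, with a median of 0.01, and of 43 mitosis genes ANAPC13 and BIRC5 fell and CDCA5 rose, with a median of 0.03. The ASF1B, BIRC5 and CDCA5 calls ended without either Y15 array. None of 41 genes of DNA replication was called, and their median was 0.07.

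EFEMP1, a fibulin of the extracellular matrix, had the second largest decrease, -1.20 ± 0.24 (adjusted p = 0.00946), but its untreated arrays read 9.89 and 8.78 and its Y15 arrays 8.07 and 8.21. GDAP1, a protein of the outer mitochondrial membrane, and NELL2, a secreted glycoprotein, had the same form, with untreated arrays at 8.79 and 8.16 and at 8.11 and 7.25. The calls of all 3 ended without either Y15 array and with the 4 arrays alone, where the adjusted p was 0.118, 0.0866 and 0.17. Those of GDAP1 and NELL2 also ended without untreated array 1. SOWAHA, an ankyrin repeat gene, fell by 1.03 ± 0.13 (adjusted p = 0.000448), from 8.93 and 8.48 to 7.72 and 7.65, and its call held throughout. Of 27 extracellular matrix genes, 3 rose and 2 fell. SDC1, the proteoglycan syndecan, rose by 0.61 ± 0.13, LAMC1, a laminin chain, by 0.46 ± 0.11, and TIMP1, a metalloproteinase inhibitor, by 0.38 ± 0.09. The number of increases was 0 without untreated array 1, 0 without Y15 array 1, 1 without Y15 array 2 and 5 without untreated array 2.

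Most genes of the respiratory chain, the proteasome and ribosome assembly lay slightly below 0, and few were called. Of 51 genes of the respiratory chain, 6 fell and 0 rose, the median was -0.17 and 9 lay above 0. COX7B, a subunit of cytochrome oxidase, went from 10.49 and 10.54 to 10.14 and 9.92, a change of -0.48 ± 0.10 (adjusted p = 0.0106). ATP5MC3, a subunit of the ATP synthase ring, fell by 0.49 ± 0.10, and NDUFV2 and NDUFS5, subunits of complex I, fell by 0.36 ± 0.09 and 0.36 ± 0.10. The number lower was 2 without untreated array 1, 8 without untreated array 2, 2 without Y15 array 1, 0 without Y15 array 2 and 0 with the 4 arrays alone. The shift itself was of like size against either untreated array, with medians of -0.19 against array 1 and -0.16 against array 2. Of 29 proteasome subunits, only PSMB5, a catalytic subunit, fell (-0.41 ± 0.10, adjusted p = 0.0345), while the median was -0.19 and 4 lay above 0, with -0.23 and -0.14 against untreated arrays 1 and 2. The PSMB5 call ended without untreated array 1 (adjusted p = 0.138), Y15 array 1 (0.189) or Y15 array 2 (0.139), and without untreated array 2 the subunits that fell numbered 4.

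Of 33 ribosome biogenesis genes, 3 fell, the nucleolar factors HEATR1 (-0.43 ± 0.10), WDR12 (-0.38 ± 0.09) and TSR1 (-0.36 ± 0.09), the median was -0.11 and 6 lay above 0. Without either Y15 array the number was 0. Cytosolic ribosomal proteins had 4 of 66 lower, among them RPL36A (-0.57 ± 0.10, adjusted p = 0.00429), and a median of -0.06, but that median was 0.01 against untreated array 1 and -0.11 against array 2. Without untreated array 2 the calls were 12 lower and 10 higher, and without Y15 array 2 there were 0. The other lists had few calls. Cholesterol and fatty acid synthesis had 3 of 28 higher (TM7SF2, INSIG1 and SCD) and ELOVL6 lower. The increases numbered 0 without untreated array 1, 0 without Y15 array 1 and 1 without Y15 array 2, and the ELOVL6 call ended without either Y15 array. TGF-beta feedback genes had 3 of 19 higher, GDF15, TGIF1 and BAMBI, of which GDF15 alone held without untreated array 1 or either Y15 array. Wnt feedback genes had NKD2 higher (0.45 ± 0.09) and DKK1, a secreted Wnt antagonist, lower (-0.56 ± 0.12, adjusted p = 0.0141). The DKK1 call ended without untreated array 1 and without either Y15 array, and the NKD2 call without either Y15 array. Of 29 interferon-stimulated genes ISG20 rose, of 31 lysosome and autophagy genes ULK1 rose, and of 17 genes of HLA class I presentation none was called. The ISG20 and ULK1 calls ended without untreated array 1 and without either Y15 array, and without untreated array 2 their lists had 4 and 5 increases.

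**Figure D4:**
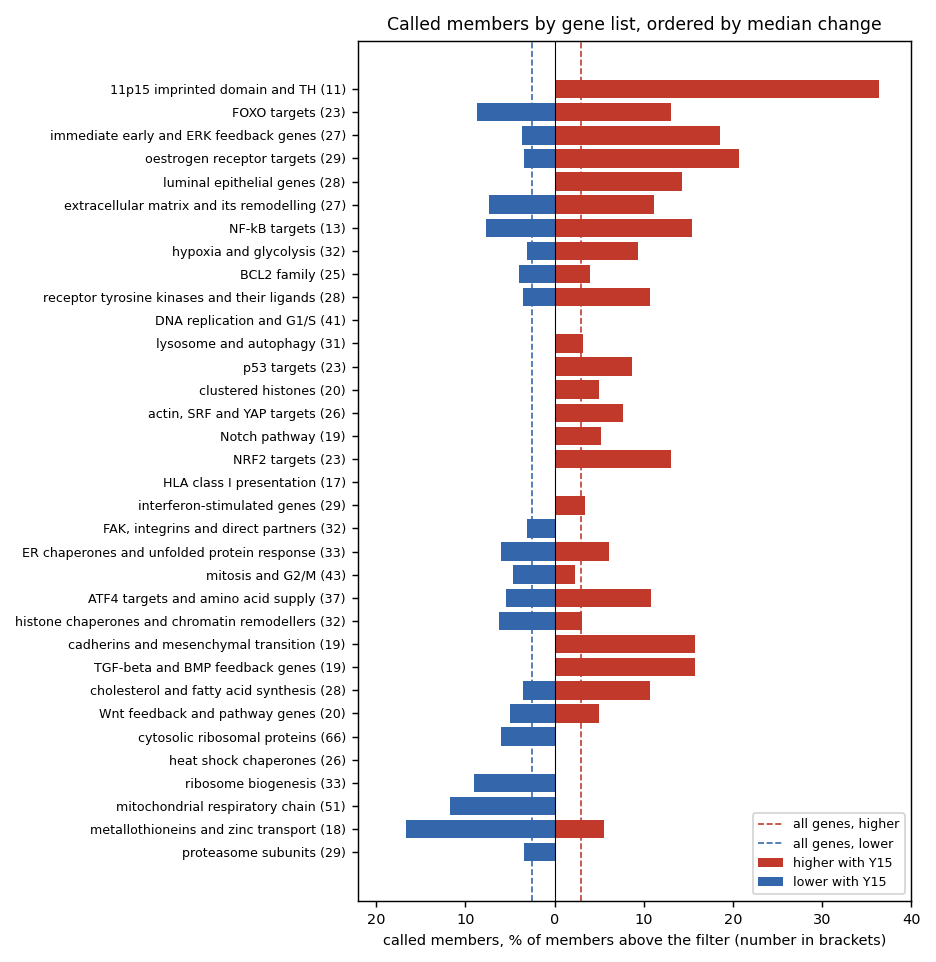
Share of the members above the filter that were called higher (red, right) or lower (blue, left) with Y15, in percent (x axis), for the lists with at least 10 such members, ordered by median change; dashed lines mark the shares over all genes, 2.94% higher and 2.5% lower. As fitted here the 11p15 list stands farthest to the right, with 4 of 11, and the metallothionein list farthest to the left, with 3 of 18. Other lists overtook that order without untreated array 2. The lists were written with earlier results of these data known, so the order is no independent result.

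The same dose of Y15 was also given with lapatinib, and that pair of groups, Y15 plus lapatinib against lapatinib, shares no array with the first. In it 1306 genes were called (11.3%), against 299 and 542 without lapatinib arrays 1 and 2 and 504 and 620 without Y15 plus lapatinib arrays 1 and 3. Of the 629 genes called with Y15 alone, 138 were called there in the same direction, 64 higher and 74 lower, which is 21.9% of the first list and 10.6% of the second, and 18 in the opposite direction. The 138 became 208 without untreated array 2 and from 49 to 79 without any 1 of the Y15, lapatinib or combination arrays. IER3 rose by 1.15 alone and by 1.53 with lapatinib (adjusted p = 4.37e-06). NR2E3, a nuclear receptor, rose by 0.80 and 0.90, and FAM217B and DUSP22, a phosphatase, rose by 0.92 and 0.79 and by 0.88 and 0.71. Among the decreases, SSRP1 fell by 0.96 alone and by 1.51 with lapatinib, ANAPC13 by 0.96 and 0.83, ENTREP3 by 0.89 and 0.69, KITLG by 1.40 and 0.86, and ZDHHC16, a palmitoyltransferase, by 0.77 and 0.74. These genes are shown because they were called the same way in both pairs, so their agreement is no separate result. DKK1 changed by -0.56 alone and by -1.87 with lapatinib, and the difference between those changes was called (adjusted p = 0.00181).

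Many of them also differed in a pair of groups without Y15. In PF04554878 plus lapatinib against PF04554878 alone, a comparison added with earlier results known, 1027 genes were called (8.88%), and 181 of the 629 moved there in the same direction, 28.8% of the first list and 17.6% of the second. Genes called the same way in all 3 pairs numbered 77, which is 55.8% of the 138. IER3 was higher there by 1.10 ± 0.12, VMA21, an assembly factor of the vacuolar proton pump, by 0.95 ± 0.12, and NR2E3 by 0.82 ± 0.09. ANAPC13 was lower by 1.01 ± 0.11, SSRP1 by 0.77 ± 0.11 and SETD3 by 0.73 ± 0.10. The change of DKK1 there was -1.93 ± 0.12. KITLG differed by -0.39 ± 0.17 (adjusted p = 0.181). These 3 pairs share no array, and neither group of the PF04554878 pair was given Y15. What moves these genes in that pair was not tested.

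**Figure D5:**
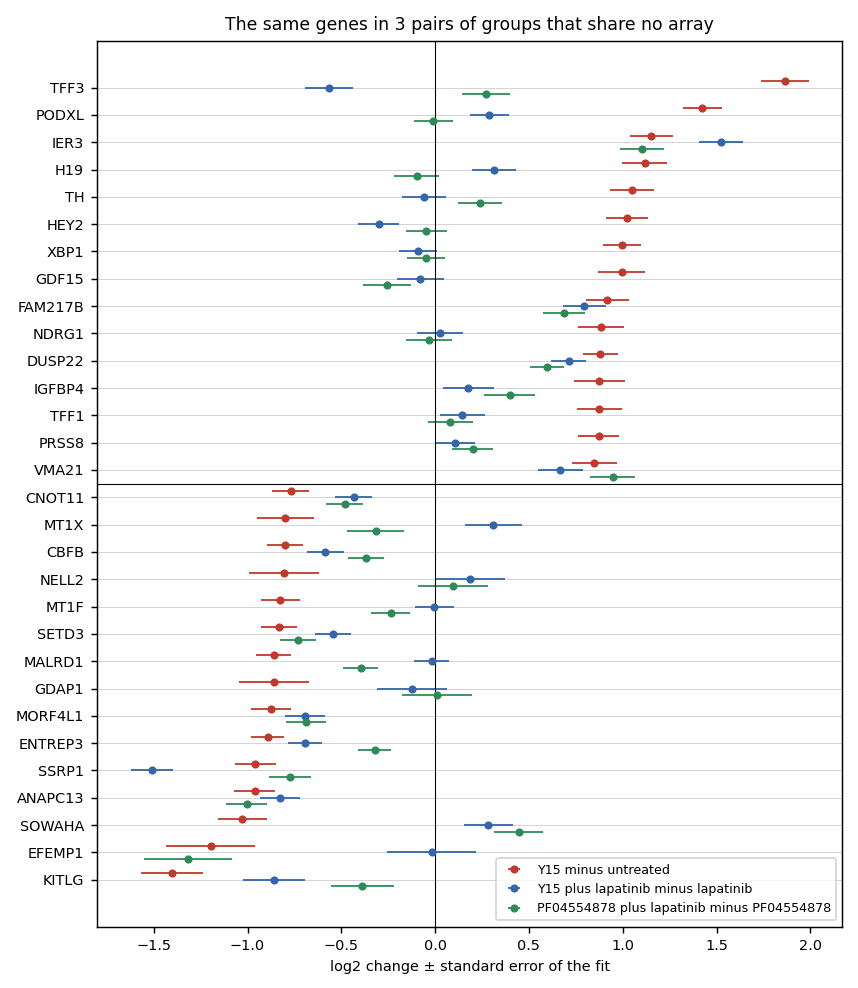
Log2 change with its standard error (x axis) of the 30 largest changes of Y15 against untreated (red), in Y15 plus lapatinib against lapatinib (blue) and in PF04554878 plus lapatinib against PF04554878 (green). IER3, FAM217B, DUSP22, VMA21, ANAPC13, SSRP1, MORF4L1 and SETD3 lie on the same side of 0 in all 3, while TFF3, PODXL, HEY2 and SOWAHA stand apart in the first. XBP1 in both other pairs, and TFF1 in the PF04554878 pair, stood near the highest value of the data, where a rise could not have been read.

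For other genes the change with Y15 alone differed from that in both other pairs. The difference between the Y15 change with lapatinib and without it was called in 447 genes (3.87%), of which 122 were among the 629. That 447 became 999 without untreated array 1, 60 and 112 without Y15 arrays 1 and 2, 30 and 194 without lapatinib arrays 1 and 2, and 176 and 131 without Y15 plus lapatinib arrays 1 and 3. The difference between the Y15 change and that of the PF04554878 pair was called in 262 (2.27%), of which 71 were among the 629. Both tests use the 4 arrays of the first comparison, so they are not independent of it. Genes called in all of these tests numbered 35, 28 higher with Y15 and 7 lower. Not all of them could have shown a like rise in the PF04554878 pair. On the arrays with PF04554878 alone, TFF1 read 13.61 and 13.68, near the highest value of the data, as XBP1 did. H19 lay near the cutoff there, at 6.84 and 6.76, where folds are compressed. TFF3, at 11.11 and 11.39, and HEY2, at 9.46 and 9.67, already stood above both of their Y15 values. PODXL, at 7.81 on both arrays, stood near its untreated level. Of the 15 largest increases 10 had the lapatinib difference called, and of the 15 largest decreases 5 did.

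TFF3 rose by 1.86 alone and fell by 0.57 ± 0.13 with lapatinib (adjusted p = 0.0105), a difference of -2.43 ± 0.18 (adjusted p = 7.98e-06). On the lapatinib arrays it already stood at 9.75 and 9.57, above the untreated level, and with Y15 plus lapatinib at 9.22 and 8.97. XBP1 rose by 1.00 alone and differed by -0.09 ± 0.10 with lapatinib, where it started at 13.66 and 13.74, above its level with Y15 alone. That is close to the highest value in the whole table, so a further rise of that size could not have been read there, and its called difference of -1.09 does not show that XBP1 moves with Y15 alone. PODXL started near its untreated level, at 7.33 and 7.34 with lapatinib, and differed there by only 0.29 ± 0.10 (adjusted p = 0.0904), against 1.42 alone. HEY2 also started near its untreated level, at 8.41 and 8.25, and differed by -0.30 ± 0.11 against 1.02 alone (adjusted p of the difference = 0.00181). On the lapatinib arrays XBP1 thus stood above its Y15 level, TFF3 between its untreated and Y15 levels, and PODXL and HEY2 near their untreated levels.

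For TFF1, TH and MALRD1, the last a low-density lipoprotein receptor domain gene, the lapatinib pair could not show the change either. They lay below background on the 4 arrays of lapatinib and of Y15 plus lapatinib, so their differences of -0.73, -1.11 and 0.84 only state that no change was seen there. On the arrays with PF04554878 plus lapatinib, TFF1 read 13.77 and 13.69 and TH 7.38 and 7.36, so their low level was not common to all arrays given lapatinib. GDF15 stood at 6.87 and 6.86 with lapatinib, just above the cutoff, against 8.62 and 9.06 untreated. MT1F fell by 0.83 alone and differed by -0.00 ± 0.10 with lapatinib, where its level was 7.19 and 7.17 against 9.64 and 9.47 untreated. H19 rose by 1.12 alone and differed by 0.31 ± 0.12 with lapatinib from a like starting level, 8.31 and 8.23 (adjusted p of the difference = 0.0209). SOWAHA fell by 1.03 alone and differed by 0.28 ± 0.13 with lapatinib, also from a like level of 8.86 and 8.82 (adjusted p of the difference = 0.00326). The arrays of lapatinib and of Y15 plus lapatinib correlated with the 4 compared here at 0.879 to 0.894, below the 0.929 to 0.938 of the PF04554878 arrays, with lapatinib or without. In the test of the difference, lapatinib and any other difference between these sets of arrays cannot be told apart.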

How the data were processed

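The authors deposited 1 processed table of log2 intensity per probe for 12 Illumina arrays. The submitters' processing notes name GenomeStudio. How it corrected background and normalized is not given in these sources. The sorted columns of this deposited log2 table differ by no more than 0.0146, like values after quantile normalization, and values run from 6.20 to 13.90. Folds are compressed for dim genes, and the number of arrays limits the precision. A second deposited table holds 24 per-sample columns that match no label and was not used.

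Background was the mode of all values (6.55) plus 3 SD of the values below it (0.0827), a cutoff of 6.80. Of 47318 probes, 30111 had 1 symbol, 8 several and 17199 none in the platform annotation. A probe was kept if at least 2 arrays exceeded this cutoff (19922 probes), and the brightest stood for its gene. Group means were fitted with limma 3.58.1 (R 4.3.3; lmFit, eBayes) to all 12 arrays, with Benjamini-Hochberg adjustment over 11564 genes, a threshold of 0.05, and 6 residual and 9.10 prior degrees of freedom. The fit was tested on simulated data in which a gene has the same spread in every group. That test does not cover the unequal spread of the untreated and Y15 arrays.

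Named genes are the 15 largest increases and decreases whose groups do not overlap, up to 4 called members of each of 40 lists, PTK2, PTK2B, EGFR, ERBB2, ERBB3 and ESR1, the 6 genes with the smallest adjusted p called both with and without lapatinib, and the 6 with that of the difference. FOS, CCND1, GREB1, SUSD3 and the noncoding RNAs of the closing section were named after their values were seen. The comparison, members and lists were chosen with earlier results of these data known. Replicate numbers did not pair the untreated and Y15 arrays (correlation of deviations 0.0701, 2 replicates a group). Alternatives were another filter, probe rule, background, spread, prior, block, threshold and set of arrays.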

Additional observations from a re-analysis of the deposited data

Results flagged for a closer look

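The change with Y15 plus lapatinib over lapatinib differed from that with Y15 over untreated in 447 genes by the test of the difference itself. Among the named genes, the change was more negative with lapatinib for TFF3 (-2.43), HEY2 (-1.32), DKK1 (-1.31), PODXL (-1.13), MKX (-1.13), TH (-1.11), SAT1 (-1.10), XBP1 (-1.09) and GDF15 (-1.07), on the log2 scale. The same held, with smaller differences, for DDIT4 (-0.89), YPEL3 (-0.89), NDRG1 (-0.85), TM7SF2 (-0.83), H19 (-0.80), PRSS8 (-0.77), TFF1 (-0.73), EPHX1 (-0.72), VEGFB (-0.72) and CNN2 (-0.70). SLC39A4 (-0.66), CD24 (-0.63), ASNS (-0.61) and ISG20 (-0.59) closed this side. The change was more positive with lapatinib for SPCS3 (0.46), ESR1 (0.73), ELOVL6 (0.77), MT1F (0.82), MALRD1 (0.84), NELL2 (0.99), HOXC9 (1.10), MT1X (1.11), PLK2 (1.23) and SOWAHA (1.31). TFF1, TH and MALRD1 lay below background on the 4 arrays of lapatinib and of Y15 plus lapatinib, and MKX on the untreated and Y15 arrays. XBP1 stood near the highest value of the table on the lapatinib arrays, where a rise could not have been read. With 2 arrays a group, no array could be set apart from its own group by its gap alone.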

How the results depend on the processing

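The 629 calls of Y15 against untreated numbered 508 to 660 with no filter, the filter on all 12 arrays, the median of the kept probes, an intensity trend or every probe as a feature (added after seeing the data). They numbered 419 after background subtraction, 229 with a spread for each group, 356 with the replicate block, 172 at adjusted p under 0.01, 60 with the arrays of the contrast alone, and 136 to 1171 without single arrays. The 1306 calls with lapatinib became 510 with the replicate block, 466 at 0.01 and 299 to 620 without single arrays. The 447 differences became 214 after background subtraction, 22 with the replicate block, 46 at 0.01, 288 with the arrays of the contrast alone and 30 to 999 without single arrays. Where an array was left out, the lone array of its group is assumed to vary like the other groups. The 138 genes shared with the lapatinib pair ran from 33 to 208. Besides the left-out arrays and the stricter threshold, the cause was not tested. The 1 value that reversed was DSP, at -0.0042 with the median of its probes. The counts of the PF04554878 pair were not recomputed. Background subtraction raised the change of 16 of the 97 named called genes by over 1.5 times. These were SSRP1 (to -2.20), NELL2 (-2.16), TH (1.81), NR2E3 (1.68), MALRD1 (-1.37), CBFB (-1.36), GDAP1 (-1.34) and ATP5MC3 (-1.31). The others were FBXO32 (1.17), RPL36A (-0.95), EGR1 (0.92), EPHX1 (0.87), ISG20 (0.82), TPM2 (0.79), RET (0.76) and TSR1 (-0.62). In that same fit the calls of TPM2 (adjusted p = 0.18), GDAP1 (0.155), EGR1 (0.109), RET (0.0519) and ISG20 (0.0518) ended. The untreated arrays had a relative weight of 0.505 against 1.25 for Y15. Depth is unknown for arrays, and genes near the cutoff of 6.80 have the least certain folds.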

Other observations

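Small nucleolar RNAs, which guide the modification of ribosomal and spliceosomal RNA, mostly had small negative differences on the Y15 arrays, and few were called. Of 108 above the filter, 95 were below 0, 5 fell and 0 rose, beside 2.5% called lower over all genes, and the median log2 change was -0.12. No test of the class was run. The 5 were SNORD96A (-0.53), SNORA25 (-0.49), SNORA18 (-0.45), SNORD36A (-0.37) and SNORD15B (-0.36). Against untreated array 1 alone 88 of the 108 were below 0 with a median of -0.17, and against untreated array 2 alone 77 with a median of -0.05. Of 13 small nuclear RNAs 2 fell, RNU4-2 and SNAR-A1. Of 203 long noncoding RNAs 3 rose, H19, LOC401357 and SNHG11, and the median was 0.03. These classes were looked up after its values had been seen.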
